A study of Humulus lupulus with 6 samples.

Results

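Neighbouring genes that lie on one strand, have the same number of exons and are of similar length are candidate tandem copies, and 13 such pairs were found in the transcribed genome of hop (Humulus lupulus). Gene models of leaf, stem and meristem were joined into 67811 loci, wherever models of one strand shared an exonic base. Of these, 22857 had exactly 1 model in each tissue. A pair was kept where both loci were adjacent among such loci, lay on the same strand and did not overlap. Its loci also had to be less than 20 kb apart, with the same exon number of at least 3 in every tissue, and with the longer at most 1.2 times the shorter in mean model length. The rule used position and structure, and no count. Models were made for each tissue alone, however, so a locus had to be expressed enough in every tissue to be modelled there. The 13 pairs hold 25 loci on 12 contigs, since 1 locus belongs to 2 pairs. They were compared with 1111 other same-strand neighbours that met every condition except equal exon number and similar length.

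The RNA came from young leaf, actively growing stem and apical meristem (the dividing shoot tip) of Cascade, a hop cultivar. All plants were raised in a glasshouse and sprayed against insects and fungi, with no other treatment. The labels list 2 samples per tissue, whereas their protocol describes 1 library per tissue, and the tables hold 1 count column per tissue. Each value below is therefore the authors' value for a tissue, with no replicate, no test between tissues and no estimate of variation between plants.

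Tandem duplication places a second copy of a gene beside the first, usually in the same orientation. Exon lengths of the coding part tend to be kept in such copies, because the reading frame depends on them, while introns change more freely. After duplication both copies may keep the same pattern of expression, or their patterns may come to differ. Many plant gene families, among them families of specialised metabolism and defence, have grown in this way. The gene numbers in the files carry no gene names, and 0 of them matched the RefSeq gene table at hand, so no function is given to any locus here. The files hold no sequence, so copies are described by their exon and intron lengths.

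The counted fragments numbered 162799212 in leaf, 125454712 in stem and 135877224 in meristem. Levels are given as CPM, which here means counts relative to the library total after TMM scaling, with factors of 0.759, 1.13 and 1.17 in the same order. The rule asks for a model in every tissue, which favours loci expressed in all of them. All 25 loci reached 1 CPM in every tissue and 23 reached 10 CPM in at least 1 tissue. Their counts ran from 124 to 27512 fragments with a median of 2496, so counting error was small. In bulk tissue, fewer cells that use a gene and less RNA per cell cannot be told apart.

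The loci of the 13 pairs shared exon lengths more often than other equal-exon neighbours did. Internal exons were compared at the same place from the 5′ end, since the outer ends of assembled models vary. Of 47 internal exon positions in the 13 pairs, 24 had identical lengths in both loci in all 3 tissues (51.1%, exact binomial 95% interval 36.1 to 65.9). Same-strand neighbours with equal exon number but a length ratio beyond the limit had 7 identical positions of 125 (5.6%, 2.28 to 11.2). Equal-exon neighbours of similar length on opposite strands had 1 of 41 (2.44%, 0.0617 to 12.9). The positions within a pair are not independent, although the intervals treat them so. Not all pairs are independent either, since 1 locus belongs to 2 pairs and a pair on another contig repeats their exon lengths. Leaving out those 2 pairs, a choice made after seeing the data, left 42.4% of 33 positions identical (25.5 to 60.8). The similar model length that the rule asks for is itself a sum of exon lengths. With a tolerance of 3 bases, 30 of the 47 positions matched.

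These matches were concentrated in 5 pairs, and the other 8 had no identical internal exon. The 12-exon pair on contig 002422F matched at 9 of 10 positions. The 5′ pair of 9-exon loci on contig 008542F matched at 6 of 7, the 3′ pair there at 4 of 7, and the 9-exon pair on contig 004672F at 4 of 7. A 3-exon pair on contig 000161F matched at its single internal exon. Within these 5 pairs, 8 positions differed, and all 8 differences were a multiple of 3 bases, from 3 to 9 bases. Those of the 3′ pair on 008542F recur on 004672F, so the 8 are not independent. The 4 matching exons of that pair also have the same lengths on 004672F, so the matches are not independent between these pairs either. In the 8 pairs without an identical exon, 15 positions differed and 6 of the differences were a multiple of 3. The remaining 9-exon pair, on contig 000001F, matched at 0 of 7 positions. Its equal exon number was therefore not accompanied by equal exon lengths.

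**Figure D1:**
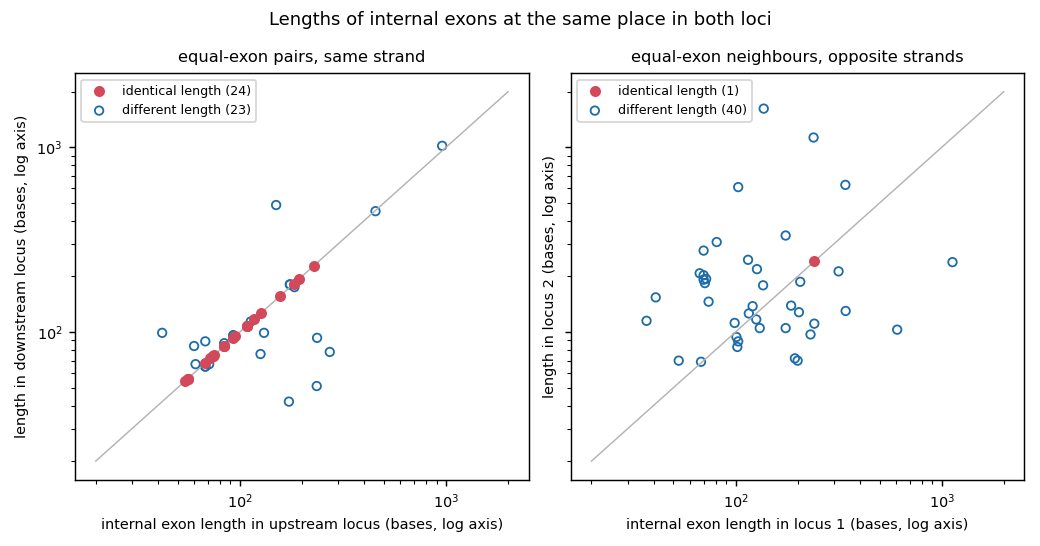
Length of each internal exon in the upstream locus (x axis, bases, log scale) against the exon at the same place in the downstream locus (y axis, bases, log scale), for the 13 same-strand pairs (left) and for equal-exon neighbours on opposite strands (right). Filled points have identical lengths and lie on the diagonal, at 24 of 47 positions in the same-strand pairs and 1 of 41 in the opposite-strand pairs.

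Intron lengths were not shared in the same way. All 87 internal exons and all 112 introns of the 25 loci had the same length in all 3 tissues, so the assembled internal structure was the same in each tissue. Between the loci of a pair, an intron of identical length was found once, on contig 000149F, where both first introns were 94 bases. The 12-exon pair, with 9 matching exons, had 0 of 11 introns of identical length and 3 within 10% of each other. In the 9-exon pairs on 008542F and 004672F, 0 of 8 introns came within 10%.

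The ratio between the loci of a pair often differed between tissues. For each pair the count of the upstream locus, in the direction of transcription, was divided by that of the downstream locus in each tissue. The fold between the highest and the lowest of these ratios measures how far the tissue profiles part, and library scaling cancels in it. It ranged from 1.29 to 20.6 in the 13 pairs with a median of 4.04, against a median of 2.49 in 1067 other same-strand neighbours with both loci at 1 CPM. A change of at least 4-fold was seen in 7 of 13 pairs (53.8%, 25.1 to 80.8), while the share among the other neighbours was 35.2%. A change under 2-fold was seen in 4 pairs (30.8%, 9.09 to 61.4), against 39.2% of the others. Both loci were highest in the same tissue in 5 pairs (38.5%, 13.9 to 68.4), against 50.9% of the others. All 3 shares of the other neighbours lie within the wide intervals of the 13 pairs, so at this number of pairs no difference was detectable. The count of 7 rested on stem and meristem. It was 3 without stem, where the others were at 16.6%, and 2 without meristem, where the others were at 23.5%. Without leaf it was 5, with the others at 18.7%.

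Distance moved with the same measure. Of the 5 pairs less than 1 kb apart, 1 changed at least 4-fold and the median was 1.70, equal to the median of 1.70 in other neighbours at that distance, of which 16.4% changed 4-fold. Between 1 and 5 kb, 3 of 3 pairs did so with a median of 4.15, against 42.6% and 3.27 in the others. Between 5 and 20 kb, 3 of 5 pairs did so with a median of 4.37, against 51.5% and 4.18 in the others. Opposite-strand neighbours of equal exon number and similar length changed at least 4-fold in 10 of 16 cases, 62.5%. Identical exons did not mark the pairs with alike profiles. Of the 5 pairs with at least 1 identical internal exon, 3 changed at least 4-fold and 0 stayed under 2-fold, with a median of 5.21. Of the 8 pairs without one, 4 changed at least 4-fold and 4 stayed under 2-fold. This split was not tested, and 1 locus on 008542F belongs to 2 of the 5 pairs.

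**Figure D2:**
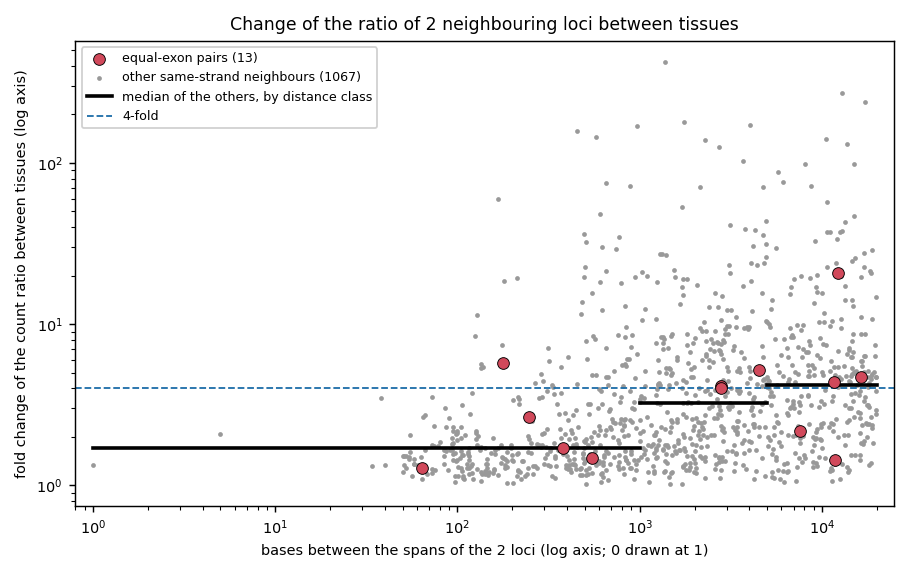
Bases between the 2 loci of a pair (x axis, log scale) against the fold change of their count ratio between tissues (y axis, log scale), for the 13 equal-exon pairs (large points) and 1067 other same-strand neighbours (small points), with the median of the others in 3 distance classes (black lines) and the 4-fold limit (dashed line). The pairs spread around the medians of the others, which are 1.70, 3.27 and 4.18 from near to far.

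The longest run of members was a row of 3 loci with 9 exons each on the minus strand of contig 008542F, and its first locus had the largest fold between tissues of the 25 members. In the direction of transcription the loci lie at 64338 to 69458 (STRG.49574 in the leaf table), 48529 to 52045 (STRG.49573) and 44311 to 48280 (STRG.49572). Gaps of 12292 and 248 bases separate them, with no other locus between. Internal exons of the first locus measured 184, 108, 56, 84, 93, 68 and 74 bases. The second locus differed at the first of these, with 175 bases. The third differed at 3 positions, with 181, 96 and 65 bases in place of 184, 93 and 68.

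The first locus had 19.5 CPM in leaf, 7.87 in stem and 143 in meristem. Its leaf level was 7.34-fold below meristem (95% counting interval 7.04 to 7.66) and its stem level 18.1-fold below meristem (17.1 to 19.3). Its leaf model covered 1112 bases and its meristem model 1364. The leaf level was 0.167 of the meristem level after division by model length and 0.136 before it. The second locus was nearly level, with 14.2 CPM in leaf, 13.5 in stem and 11.9 in meristem. The third locus was highest in stem, with 18.1 CPM in leaf, 27.5 in stem and 9.16 in meristem, a 3.01-fold difference between stem and meristem (2.83 to 3.19). The first locus was thus highest in meristem and the third in stem, and the second had no clear peak. Its leaf level was 1.06-fold its stem level (0.988 to 1.13), and without scaling factors stem was the higher. First over second locus, the count ratio was 1.37 in leaf, 0.584 in stem and 12 in meristem, a 20.6-fold change (18.9 to 22.5). Between the second and the third locus it was 0.785, 0.490 and 1.29 in the same order, a 2.64-fold change (2.42 to 2.88). Between the first and the third locus, which are not neighbours, the ratio changed 54.5-fold (50.1 to 59.4).

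A second contig carried the same series of exon lengths in the same order. On the plus strand of contig 004672F, loci at 34684 to 38247 (STRG.40752 in the leaf table) and 38426 to 42560 (STRG.40753) form a member pair with a gap of 178 bases. All 7 internal exons of the locus at 34684 equal those of the second locus on 008542F, and all 7 of the locus at 38426 equal those of the third. Introns, which differed within each contig, were close between the contigs: 7 of 8 were within 10% for the second position and 5 of 8 for the third. Upstream on 004672F lies a locus at 3976 to 7239 with 7 exons, which is no member. Its 5 internal exons, of 56, 84, 93, 68 and 74 bases, repeat the last 5 of both the first and the second locus on 008542F. The match was found after the exon lengths were seen, and whether the contigs carry separate gene copies or alleles of the same genes was not tested.

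The ratio of the second to the third locus was lowest in stem on both contigs. The locus at 34684 had 14.0 CPM in leaf, 6.83 in stem and 8.30 in meristem. Its neighbour at 38426 had 8.25, 21.9 and 4.62 CPM in the same order and was 4.74-fold higher in stem than in meristem (4.37 to 5.14). Their count ratio was 1.70 in leaf, 0.313 in stem and 1.80 in meristem, a 5.75-fold change (5.13 to 6.46). Its leaf and meristem values lay too close together to be ordered beyond counting error. Loci of matching exon lengths on the different contigs parted less than neighbours on one contig. The ratio between the loci at 34684 and 48529 changed 1.95-fold (1.76 to 2.16), and that between 38426 and 44311 changed 1.74-fold (1.6 to 1.9). Crossing the positions between contigs gave 3.65-fold for 34684 with 44311 and 4.16-fold for 38426 with 48529. The first positions did not follow this. The non-member at 3976 had 161 CPM in leaf, 15.2 in stem and 125 in meristem, so both first loci were high in meristem and low in stem, but leaf held 161 CPM on 004672F and 19.5 CPM on 008542F. Their ratio changed 9.43-fold by counts (9.0 to 9.87) and 7.94-fold per base of model.

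The 12-exon pair on the minus strand of contig 002422F had the closest exon match and a moderate change. Its upstream locus at 444826 to 448702 (STRG.29111 in the leaf table) and its downstream locus at 433459 to 437201 (STRG.29110) lie 7624 bases apart. Both have internal exons of 126, 156, 183, 117, 54, 72, 194, 95 and 75 bases. The tenth is 84 bases in the upstream locus and 87 in the downstream one. The upstream locus had 22.8 CPM in leaf, 17.7 in stem and 12.2 in meristem, and the downstream locus had 30.8, 10.9 and 10.3 in the same order. Both were highest in leaf, although for the upstream locus this rested on scaling. Its log2 difference of leaf over stem was 0.37 with TMM and -0.20 without factors. Upstream over downstream, the count ratio was 0.742 in leaf, 1.62 in stem and 1.19 in meristem, a 2.18-fold change (2.01 to 2.36).

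This pair, too, had a counterpart elsewhere. On the plus strand of contig 000562F, loci at 36762 to 40595 and 53328 to 56945 lie 12732 bases apart. All 10 internal exons of the locus at 53328 equal those of the downstream locus on 002422F, and 10 of 11 introns were within 10%. In the leaf models, 8 of 10 internal exons of the locus at 36762 equal those of the upstream locus, and 11 of 11 introns were within 10%. The stem and meristem models of that locus have 11 exons, so the pair on 000562F missed the rule. The locus at 36762 had 12.5 CPM in leaf, 18.0 in stem and 10.3 in meristem, and the locus at 53328 had 24.8, 7.82 and 10.6. Their ratio was 0.503, 2.3 and 0.971 in the same order, a 4.56-fold change (4.16 to 5.01). On both contigs the ratio was lowest in leaf and highest in stem. Between contigs, the upstream loci parted by 1.86-fold (1.71 to 2.02) and the downstream loci by 1.44-fold (1.3 to 1.6). As for the 9-exon row, whether the contigs hold separate copies or alleles was not tested, so their ratios may not be independent.

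**Figure D3:**
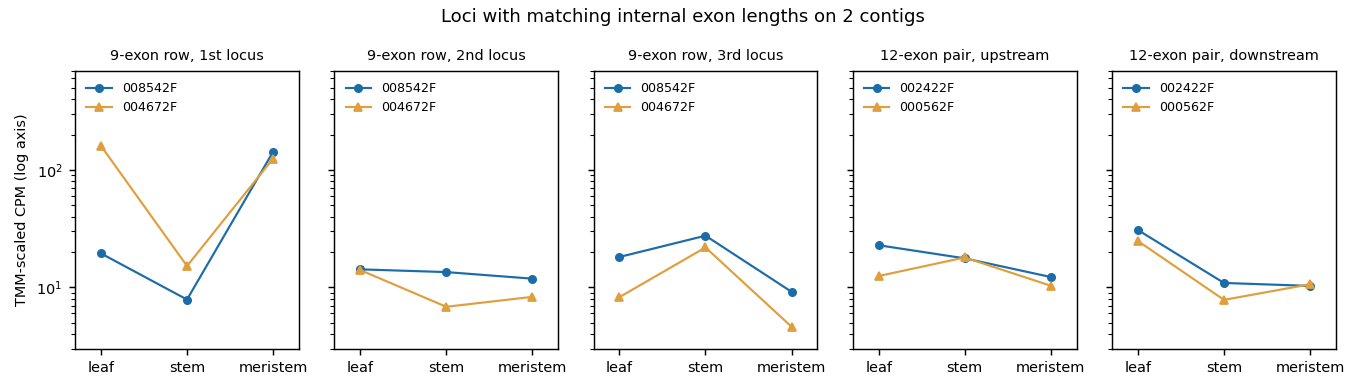
TMM-scaled CPM (y axis, log scale) in leaf, stem and meristem of loci with matching internal exon lengths on 2 contigs, each line being 1 locus. The second and the third loci of the 9-exon row and both loci of the 12-exon pair lie within 2.2-fold of their counterpart in every tissue, while the first loci, of 9 exons on 008542F and 7 exons on 004672F, differ in leaf, at 19.5 and 161 CPM.

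A counterpart on another contig was not peculiar to the members. A counterpart was counted where all internal exon lengths were identical and at least 50% of introns were within 10% of each other, or all introns for loci with 2 introns. Of the members with 9 exons, 4 of 7 had one, while 17.0% of all 9-exon loci with 1 model per tissue did. For 12 exons it was 1 of 2 members, against 18.5%. For 3 exons it was 3 of 14 members, against 23.3%, and for 4 exons 0 of 2, against 21.6%. The 4 members with 9 exons, on 008542F and 004672F, are counterparts of each other, so each match was counted from both sides. The 3-exon pair on contig 005837F had counterparts of both loci as neighbours on contig 001084F, 1903 bases apart. The upstream loci parted by 1.93-fold between these contigs and the downstream loci by 1.15-fold. The ratio within the pair changed 4.04-fold on 005837F and 5.97-fold on 001084F (5.32 to 6.70), and on both contigs it was highest in stem and lowest in meristem. The meristem model of the upstream locus on 001084F had 2 exons and 643 bases, against 3 exons and 886 bases in leaf, and per base of model the change there was 4.67-fold. Whether these contigs hold alleles was not tested either.

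The 3-exon pairs on 000161F, 001519F, 000326F, 000149F and 005837F changed at least 4-fold by counts. The pair on the plus strand of contig 000161F, at 272225 to 274449 and 278946 to 281495, has an internal exon of identical length in both loci, and mean model lengths of 1470 and 1459 bases. Its upstream locus had 47.4 CPM in leaf, 6.66 in stem and 67.6 in meristem, and its downstream locus had 163, 57.2 and 112. The downstream locus was the higher in every tissue, and both were lowest in stem. Stem was 10.2-fold below meristem in the upstream locus (9.50 to 10.9) and 1.95-fold below it in the downstream locus (1.9 to 2.0). The count ratio was 0.291 in leaf, 0.116 in stem and 0.606 in meristem, a 5.21-fold change (4.85 to 5.60).

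On contig 001519F, plus strand, the loci at 194185 to 195858 and 212310 to 213840 lie 16451 bases apart with 2 other loci between them. The upstream locus had 38.2 CPM in leaf, 21.3 in stem and 13.3 in meristem, and the downstream locus had 195, 59.1 and 173. Their ratio changed 4.67-fold (4.4 to 4.97) by counts, from stem to meristem, and 4.02-fold per base of model. The downstream model covered 607 bases in stem and 701 in meristem, while the upstream model covered 805 and 799. The internal exons measured 173 and 42 bases, so these loci were alike in total length and not in their internal exon. On contig 000326F, plus strand, at 713471 to 716314 and 719100 to 721646, the upstream locus had 15.4 CPM in leaf, 9.20 in stem and 36.9 in meristem. Its downstream neighbour had 32.6, 18.2 and 18.7 CPM. Their ratio was near 0.5 in leaf and stem, at 0.474 and 0.505, and 1.97 in meristem, a 4.15-fold change (3.87 to 4.45). The internal exons were 958 and 1019 bases.

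In the remaining 2 the change fell under 4-fold once counts were divided by model length. On contig 000149F, plus strand, at 1742450 to 1743869 and 1755568 to 1757061, the upstream locus had 27.6 CPM in leaf, 3.71 in stem and 7.98 in meristem, and the downstream locus had 12.3, 7.21 and 15.0. The ratio changed 4.37-fold by counts (3.87 to 4.93) and 3.95-fold per base. Internal exons of 455 and 451 bases and first introns of 94 bases in both loci made this pair close in structure. On contig 005837F, minus strand, at 241210 to 242511 and 236759 to 238397, the upstream locus had 21.9 CPM in leaf, 38.3 in stem and 15.1 in meristem, and the downstream locus had 20.7, 11.7 and 18.5. The change was 4.04-fold by counts (3.74 to 4.36) and 3.52-fold per base. Internal exons were 113 and 114 bases. Per base of model, 5 of 13 pairs changed at least 4-fold (38.5%), against 34.4% of the other neighbours.

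The 4 pairs with alike profiles shared no internal exon length. On contig 004913F, minus strand, the loci at 230335 to 231565 and 229126 to 230270 are 64 bases apart, the smallest gap of all. The upstream locus had 14.6 CPM in leaf, 46.6 in stem and 15.8 in meristem, and the downstream locus had 19.1, 78.4 and 21.1. Both were highest in stem, and their ratio changed 1.29-fold (1.2 to 1.38). On contig 001378F, minus strand, the 4-exon loci at 177342 to 179987 and 175295 to 176959 had 36.2 and 59.2 CPM in leaf, 8.35 and 12.1 in stem and 13.4 and 33.1 in meristem. Both were highest in leaf and lowest in stem, with a 1.70-fold change (1.55 to 1.86).

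On contig 000001F, minus strand, the 9-exon loci at 3164832 to 3167452 and 3149826 to 3152972 had 37.9 and 42.6 CPM in leaf, 49.0 and 78.8 in stem and 39.1 and 51.6 in meristem. They lie 11859 bases apart with 1 locus between, and their ratio changed 1.43-fold (1.36 to 1.51). On contig 007530F, minus strand, the weakest pair, at 42268 to 43111 and 40112 to 41721, had 2.34 and 1.0 CPM in leaf, 7.51 and 3.60 in stem and 7.51 and 4.77 in meristem. Leaf was lowest in both, and the change was 1.48-fold (1.18 to 1.86).

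**Figure D4:**
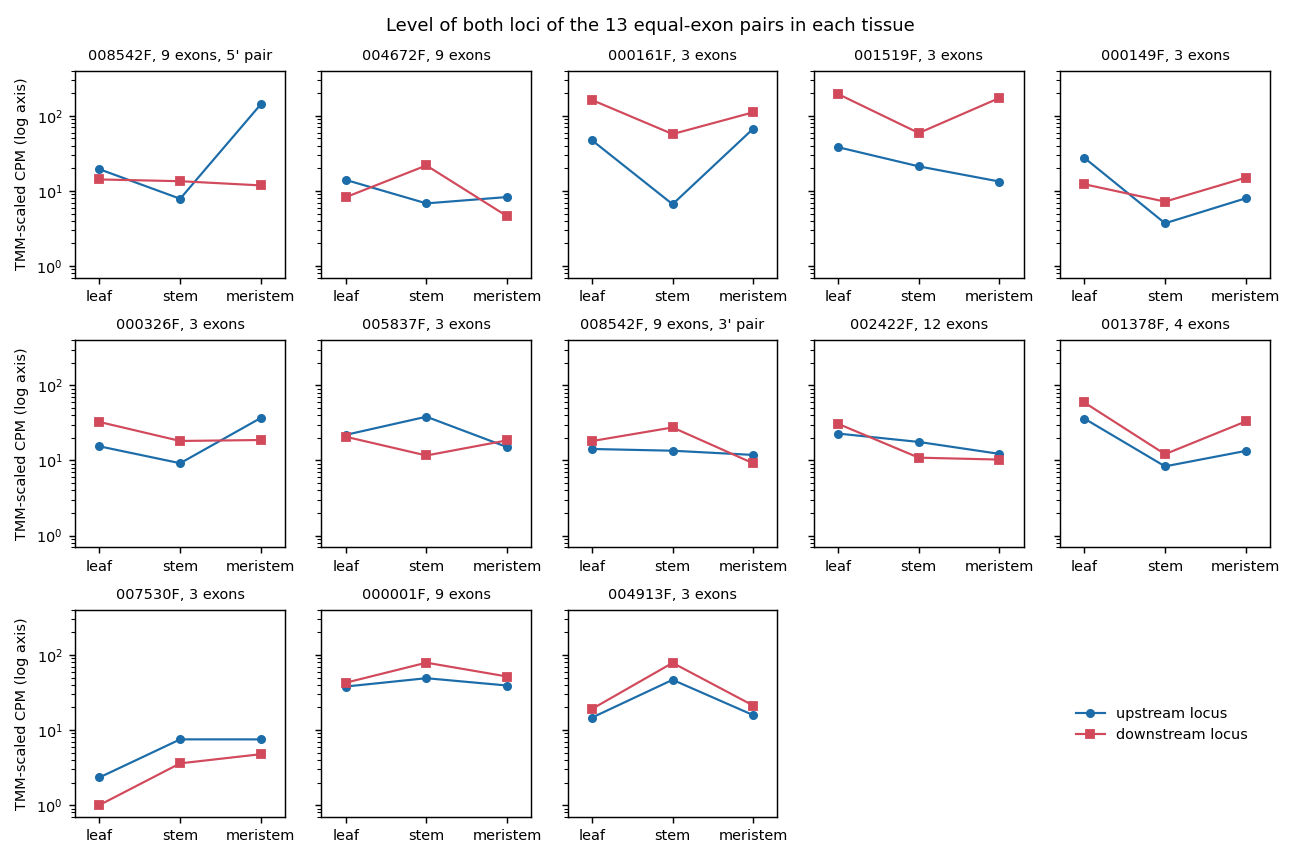
TMM-scaled CPM (y axis, log scale) of the upstream locus (circles) and the downstream locus (squares) in leaf, stem and meristem, in 13 panels ordered by the fold change of the count ratio, from 20.6 to 1.29. Lines cross in the upper row for the pairs on 008542F, 004672F and 000149F and run side by side in the lower row.

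The loci of a pair were often close in overall level. Summed over tissues and per kb of model, the higher locus exceeded the lower by a median of 1.28-fold, with a range of 1.06 to 5.65, against a median of 2.22-fold in other same-strand neighbours. In 8 of 13 pairs the loci were within 2-fold. The median was 1.23-fold in the 5 pairs with an identical internal exon and 1.41-fold in the 8 pairs without one. The downstream locus was the higher in 9 pairs and the upstream locus in 4. The widest gap was on 001519F, where the downstream locus stood 5.65-fold above its partner, and the next on the 5′ pair of 008542F, at 3.61-fold. The higher locus was the same in all tissues in 5 pairs (38.5%, 13.9 to 68.4), against 67.5% of the other neighbours, which lies within that interval. In the other 8 pairs it changed with the tissue. Where the levels of the loci are close, a smaller change of their ratio reverses the order. The share with the same higher locus is therefore not separate from the level ratio.

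Taken one by one, 8 of the 23 members at 10 CPM passed 4-fold in at least 1 comparison between tissues, against 38.9% of all loci with a model in every tissue and 10 CPM in at least 1. In each comparison a locus was used where the higher tissue reached 10 CPM. Leaf was at least 4-fold above stem in 4 of 23 members, against 18% of all loci compared. These were the upstream loci on 000149F (7.45-fold, 6.79 to 8.18) and 000161F (7.12-fold, 6.65 to 7.64) and both loci on 001378F (4.33-fold upstream and 4.88-fold downstream). Without scaling factors, which raise leaf, 2 members remained, the loci on 000149F and 000161F. Leaf was at least 4-fold below stem in 1 of 23, against 10.4%: the downstream locus on 004913F (4.11-fold, 3.93 to 4.30). Without scaling factors both loci of that pair passed.

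Leaf was at least 4-fold above meristem in 0 of 22 members, against 10.8% of all loci, and below it in 1, the first locus on 008542F, against 6.36%. Per base of model, the upstream locus on 001519F also passed, at 4.36-fold above meristem. Stem was at least 4-fold above meristem in 1 of 21, the locus at 38426 on 004672F, against 9.63%. Per base, the downstream locus on 004913F passed as well, at 4.06-fold. Stem was at least 4-fold below meristem in 3 of 21, against 12.9%: the first locus on 008542F and the upstream loci on 000161F and 000326F. The last of these was at 4.01-fold (3.78 to 4.26) and did not pass with RLE scaling. By tissue of highest level, 12 members were highest in leaf (48%), 8 in stem (32%) and 5 in meristem (20%). Of 15057 loci with 1 model per tissue and 1 CPM in every tissue, 39.4% were highest in leaf, 36.7% in stem and 24.0% in meristem. Without scaling factors the members numbered 7 in leaf, 9 in stem and 9 in meristem, against 21.1%, 42.6% and 36.3% of those loci.

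The pairs just inside the length limit were those on 001378F and 000001F, with length ratios of 1.18 and 1.19, whose count ratios changed 1.70-fold and 1.43-fold. Just outside were pairs on 002015F and 002880F, with length ratios of 1.21 and 1.23 and changes of 1.45-fold and 72.1-fold. Just inside the distance limit were the 5′ pair on 008542F and the pair on 001519F, at 12292 and 16451 bases, with changes of 20.6-fold and 4.67-fold. Just outside were pairs on 002846F and 002722F, at 24597 and 26479 bases, with changes of 1.74-fold and 4.72-fold.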

How the data were processed

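Fragments per gene model were counted with featureCounts 1.6.3 on paired reads with strand setting 1, per the file headers, against models of each tissue alone. The deposited values are raw counts, and model lengths in bases are the authors' as well. HISAT2 2.1.0 and StringTie 1.3.3b are named in the submitters' processing notes. The headers speak of a masked, deduplicated Cascade assembly, and coordinates are 1-based on its contigs. With default options featureCounts leaves out fragments that align to several places, so counts of near-identical copies are too low to a degree that is not known. No source used here says whether the kit marks strand.

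Models sharing at least 1 exonic base on a strand were joined and their counts summed. TMM factors were computed with edgeR 4.0.16 in R 4.3.3, for scaling only, on the 33671 loci (of 33811 present in every tissue) that its low-count filter kept. Pairs were compared with Python 3.11.15, using scipy 1.17.1, numpy 2.4.6 and pandas 2.3.3. The plots come from matplotlib 3.10.9. A count of 0 was raised to 3. Intervals of folds and ratios reflect counting error alone, with fragments taken as independent. PCR copies carry no molecular identifier and are not independent molecules, so these intervals may be too narrow. Shares carry exact Clopper-Pearson 95% intervals. The planned edgeR quasi-likelihood test needs replicates, so folds of size were used and no p-value was computed.

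Named loci are those of the longest run, the pairs with the most identical exons, the largest or smallest ratio change or the highest level, and the pairs at the limits of the rule. The remaining pairs and the counterparts on other contigs were named after their values were seen. The members and lists were chosen with earlier results of these data known. Alternatives covered scaling, filters, fold limits, counts per base, tissues left out, joining, adjacency, distance, length and exon number. The pair steps were tested on simulated data.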

Additional observations from a re-analysis of the deposited data

How the results depend on the processing

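Over 14 results, 117 of 147 values under 26 alternatives stayed within the interval or 1.5 times the count of the value reported, and 30 moved. The intervals of the 13 pairs are wide, so staying within them says little about stability. No alternative on overlap could move the 13 pairs, since 0 members were overlapped by a model of the other strand. The order of the equal-exon pairs and the other neighbours was not stable. With a limit of 8-fold and without meristem, the share of the equal-exon pairs was the lower. Without stem and with at least 5 exons, their median was the lower. The share of other same-strand neighbours changed at least 4-fold, 35.2%, was 40.0% with a 10 CPM minimum, 28.9% under 5 kb and 31.4% with adjacency among all loci. The matching medians on the log2 scale were 1.51, 1.1 and 1.14, against 1.32. A limit of 2-fold gave 60.8% of the others. At 8-fold, 1 equal-exon pair (7.69%) and 16.9% of the others passed. Without leaf the others were at 18.7% with a median of 0.67. Without stem, 3 equal-exon pairs passed (23.1%), and the others were at 16.6% with a median of 0.71. Without meristem, 2 equal-exon pairs passed (15.4%), and the others were at 23.5% with a median of 0.87. By construction fewer pairs were left with lengths within 10% (4 of 6 passing), under 5 kb (4 of 8) and with at least 5 exons (2 of 5). Identical internal exons made up 66.7% within 10% length. Other neighbours shared their highest tissue in 56.4% of cases under 5 kb and 47.8% with at least 5 exons. Per base of model, leaf over meristem gained 1 member and stem over meristem had 2. Without scaling factors, leaf over stem and stem over leaf had 2 members each.

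Chosen after seeing the data were a wider length limit, other neighbours within the gap range of the pairs, and leaving out the pairs of the run of 3 loci. They gave 8 of 16 pairs, 35.0% of the others and 6 of 11 pairs, and none of these values moved. No paired analysis was possible because each tissue has a single count column without a replicate number. Leaving out a replicate, edgeR's quasi-likelihood test and DESeq2 were not run for the same reason. With 13 pairs taken as independent, the share changed at least 4-fold is known only to between 25.1% and 80.8%, and depth is not what limits it.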

Other observations

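Some same-strand neighbours outside the 13 pairs also shared a row of exon lengths. A run of at least 3 consecutive internal exons of identical length was found in 4 of the 13 pairs, in 5 of 1111 other same-strand neighbours (0.45%) and in 0 of 17 and 0 of 739 opposite-strand neighbours, in which no run exceeded 1 exon. The 5 had missed the rule by unequal exon number or by length. They were picked out after exon lengths were seen, and their count ratios changed 4.42-fold to 10.4-fold between tissues. The smallest change, on contig 004136F, was 2.87-fold per base of model, and mean model lengths there differed 2.74-fold.

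One was the counterpart on 000562F described above. On contig 000265F, minus strand, the upstream locus at 288560 to 292949 had 9.20 CPM in leaf, 35.0 in stem and 18.5 in meristem. Its downstream neighbour at 272549 to 277179 had 28.8 CPM in leaf and 10.6 in stem. The upstream locus was thus highest in stem and the downstream one lowest there, a 10.4-fold change. On contig 000727F, minus strand, the loci lie at 958538 to 960282 and 954091 to 956649. They had 5.88 and 16.5 CPM in leaf and 2.0 and 13.8 in meristem. Both were highest in stem, with 7070 and 7271 fragments there. Their count ratio was highest in stem and lowest in meristem, a 6.71-fold change. On contig 000682F, minus strand, the locus at 975844 to 978927 had 165 CPM in stem, against 10.3 in its downstream neighbour at 972770 to 975529.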
